A study of Mus musculus with 72 samples.

Results

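Isolated integrations are reporter insertions that lie far from every other insertion mapped in the same experiment. They were taken as the integrations on chromosomes 1 to 19 that have no other listed integration of any pool within 100 kb on the same chromosome, a rule that uses positions only and no measured expression. Of the 17857 integrations listed in all, 17500 were on these chromosomes, and 3079 of those (17.6%) were isolated. The other 14421 autosomal integrations are the set they are compared with, and the 7167 of these with 1 or 2 others within 100 kb are a further set, closer to them in local density. Isolation refers to the listed integrations of these pools, so integrations that were not mapped are not seen by it.

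The values come from TRIP, an assay in which identical reporter genes with individual random barcodes are inserted throughout a genome and read in parallel from RNA and DNA. The host was EBRTcH3, a line of mouse embryonic stem cells with a tetracycline-controlled transactivator driven by the endogenous ROSA26 promoter, grown with leukemia inhibitory factor, the MEK inhibitor PD0325901 and the GSK-3 inhibitor CHIR99021. All reporters carried the mouse PGK promoter (mPGK), were delivered as a piggyBac plasmid library together with a plasmid for the mPB transposase, and went through a sort for low eGFP signal, so no pool without the reporter, and no pool from the other sorted populations, is compared here. The 6 pools, mPGK-A to mPGK-F, were each divided for the last 7 days of growth into 2 cultures that serve as technical replicates. Nothing in the labels says that the pools came from separate transfections, so the permutation p-values below measure the spread between these pools. The edgeR p-values for single integrations come from counts within a pool and measure only the spread between its technical replicates.

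The piggyBac transposon inserts at TTAA sites and in mammalian cells is known to favour open, transcribed chromatin, so that gene-poor, compact regions receive fewer insertions. A promoter placed in the genome can be raised by nearby enhancers or held down by surrounding heterochromatin, which is called a position effect. The PGK promoter belongs to a housekeeping gene of glycolysis and is widely used to drive transgenes in embryonic stem cells.

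Each reporter is identified by its barcode, which ties its RNA and DNA reads to a mapped position. The 5 isolated integrations with the highest expression among those with at least 100 DNA reads carried these barcodes, shown because they mark sites of strong output with no mapped neighbour. Capitals are the barcode bases as listed, positions are those of mm9 as listed, and the labels do not state whether counting starts at 0 or 1. Each position may therefore be off by a single base.
mPGK-D, chromosome 5, position 28119015, minus strand: ACTCAGGGATAAGTCA
mPGK-D, chromosome 3, position 63635256, plus strand: TTATTTTCTTCGCATC
mPGK-A, chromosome 5, position 110900609, minus strand: ATTGCCTTTTACTCTC
mPGK-C, chromosome 1, position 67194224, plus strand: AGGGGAATGCACCATT
mPGK-E, chromosome 14, position 56474600, minus strand: AATATCCCAAGCCGTA

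The 5 isolated integrations with the most DNA reads among those without any RNA read are shown because their silence is the best supported by depth.
mPGK-D, chromosome 3, position 156961124, minus strand: CTGTGCATAGTATACG
mPGK-E, chromosome 11, position 39911509, minus strand: CCGCTTGGCAAATTCT
mPGK-D, chromosome 14, position 112954591, plus strand: CCTCCTAAGTTAATCT
mPGK-C, chromosome 7, position 64229861, plus strand: ATATCAAAATCTATCT
mPGK-C, chromosome 15, position 68438377, plus strand: TATACGCAATATTCTG

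The 5 integrations farthest from any other listed integration are shown as the extreme of the rule.
mPGK-D, chromosome 7, position 11053445, plus strand: GTTAATCGAATATAAA
mPGK-F, chromosome 9, position 6010047, plus strand: GGAGGCTGTTACGTAC
mPGK-E, chromosome 17, position 38861470, plus strand: TGTCCTGAGTCGATGT
mPGK-A, chromosome 3, position 77209861, plus strand: GTTCTATCCCAATGGC
mPGK-A, chromosome 16, position 51982545, minus strand: CAGAAGTGGAGTAAGA

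Barcodes of isolated integrations had lengths and base contents close to those of the others. Of the 3079, 3013 had 16 bases, 22 had 15 and 44 had 17, and their mean GC content was 41.3%, against 41.4% in the other autosomal integrations. The same barcode was listed in another pool as well for 169 isolated integrations (5.49%), against 5.78% of the others. No barcode was listed at the same place, within 1 kb, in more than 1 pool.

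DNA reads summed to between 3386477 and 3693449 per pool and replicate over the listed barcodes, and RNA reads to between 2880244 and 3508366. Summed over its replicates, the median isolated integration had 1588 reads from DNA and 230 from RNA, against 1689 and 670 for the other autosomal integrations. Within the isolated integrations of a pool, the replicates had Spearman rho values of 0.879 to 0.920, which run across integrations and describe technical agreement. The error SD of a single replicate on the log2 scale was 0.98 for isolated integrations and 0.73 for the others, and 139 isolated integrations (4.51%) had under 10 RNA reads, against 1.85% of the others.

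Isolated reporters gave less RNA per DNA copy than reporters with mapped neighbours. Expression is the log2 ratio of a barcode's share of RNA reads to its share of DNA reads, averaged over both replicates and set to 0 at the median of its pool. It averaged -1.20 in mPGK-A, -1.32 in mPGK-B, -1.38 in mPGK-C, -1.60 in mPGK-D, -1.53 in mPGK-E and -1.30 in mPGK-F for isolated integrations. For the other autosomal integrations the means were 0.10, 0.09, 0.03, 0.08, 0.11 and 0.08 in the same pools. Every isolated mean lay below every mean of the others. The difference averaged -1.47 ± 0.16 (SD, n = 6 pools), a 2.77-fold lower ratio, and was lower in 6 of 6 pools (exact two-sided permutation test over the sign of the pool differences, p = 0.031, the smallest that 6 pools allow; adjusted p = 0.042 over the family of 8 such tests). The widest pool difference was -1.69 in mPGK-D and the narrowest -1.29 in mPGK-A.

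**Figure D1:**
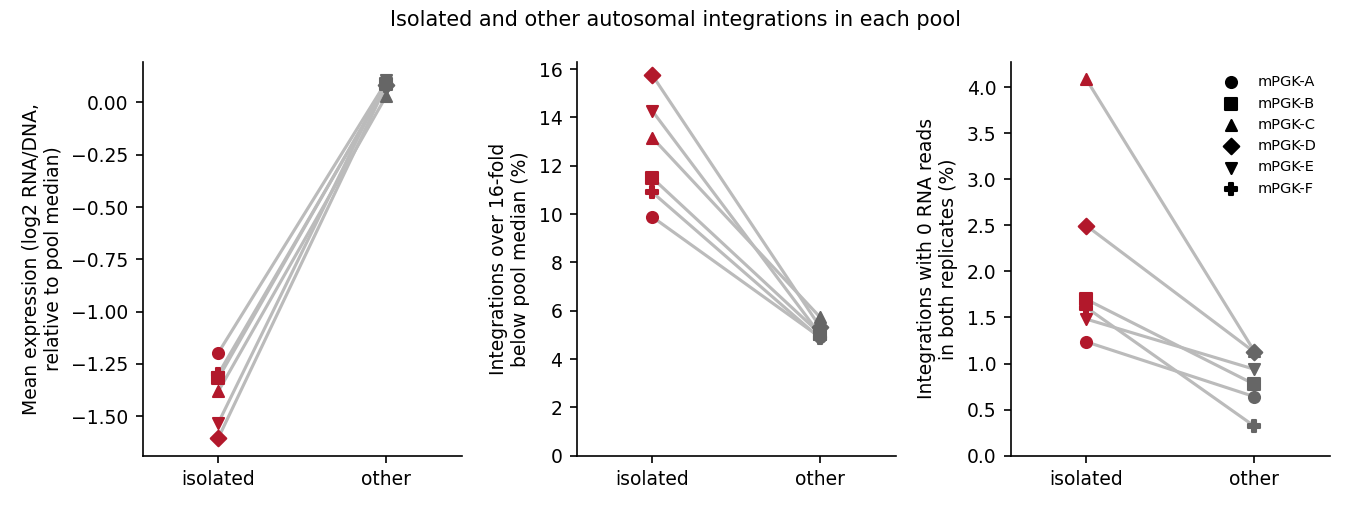
Mean expression (left, log2 RNA to DNA ratio relative to the pool median), share of integrations over 16-fold below the pool median (middle, %) and share with 0 RNA reads in both replicates (right, %) in isolated (red) and other autosomal (grey) integrations, with 1 symbol and line per pool. In all 3 panels the 6 lines run one way, and mPGK-C has the widest gap in the share with 0 RNA reads, 4.08% of isolated integrations against 1.13% of the others.

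The lower level held against integrations with few neighbours. Integrations with 1 or 2 others within 100 kb averaged between -0.58 in mPGK-C and -0.37 in mPGK-F, and the isolated integrations lay 0.92 ± 0.15 log2 units below them (SD, n = 6 pools), a 1.90-fold lower ratio. This difference was lower in 6 of 6 pools, from -1.14 in mPGK-D to -0.75 in mPGK-A (exact two-sided permutation test, p = 0.031, adjusted p = 0.042). Across classes of local density, the isolated integrations were at one end. Mean expression over the integrations of all pools was -1.39 with 0 neighbours (3079 integrations), -0.72 with 1 (3803), -0.16 with 2 (3364), 0.28 with 3 (2689), 0.67 with 4 to 6 (3671) and 1.40 with 7 or more (894). The mean was higher in each class with more neighbours. The difference from integrations with 1 neighbour alone was not tested.

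Isolated reporters varied widely in expression around their lower centre. From the 5th to the 95th percentile, isolated integrations ran from -5.74 to 2.27 on the log2 scale, a 258-fold range, against -4.04 to 3.55 and a 193-fold range in the others. The middle 50% of isolated integrations lay between -2.74 and 0.21, which spans 7.77-fold, against 7.48-fold in the others. The SD of expression within a pool was 2.19 (mPGK-A) to 2.70 (mPGK-C) for isolated integrations and 2.26 (mPGK-F) to 2.42 (mPGK-C) for the others. The SDs differed by 0.064 ± 0.15 (SD, n = 6 pools; higher in 4 of 6 pools; exact two-sided permutation test, p = 0.375, adjusted p = 0.375), less than the spread between pools, and the difference turned to -0.101 with a pseudocount of 5 RNA reads in place of 0.5. The 2 distributions overlapped over most of their length, and 866 isolated integrations (28.1%) were above the median of their pool, against 54.9% of the others.

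**Figure D2:**
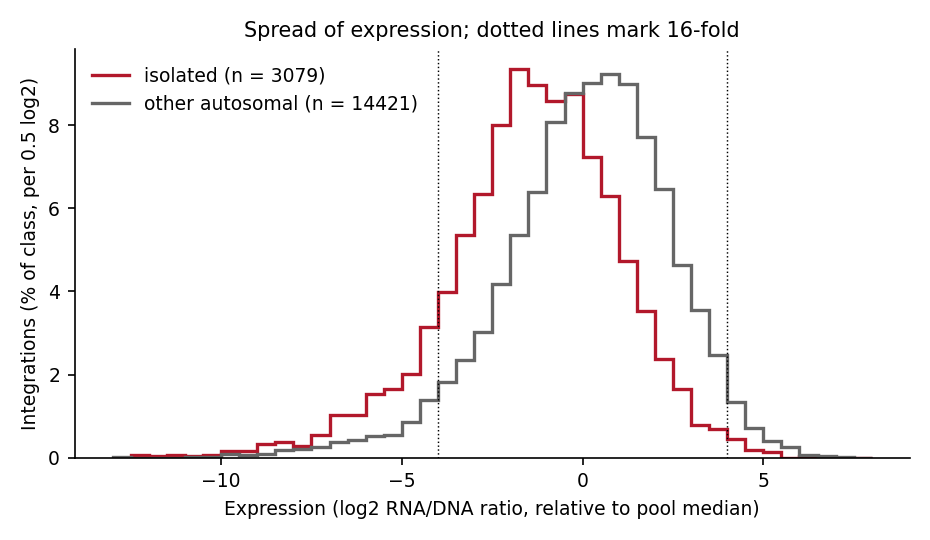
Distribution of expression (log2 RNA to DNA ratio relative to the pool median) in 3079 isolated (red) and 14421 other autosomal (grey) integrations, as the percentage of the class in each step of 0.5 log2 units, with dotted lines at 16-fold below and above the pool median. The isolated curve is shifted to the left, with a median of -1.26 against 0.28, and has the heavier left tail.

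Calls on single integrations leaned to the lower side. Counts of RNA were tested against those of DNA for each listed barcode, pool by pool. By this test (edgeR quasi-likelihood test, Benjamini-Hochberg adjustment at 0.05, 2 RNA and 2 DNA counts per barcode), 1649 isolated integrations (53.6%) had a ratio lower than the pool's median and 539 (17.5%) a higher one. Over all integrations tested, 33.7% were called lower and 36.9% higher. In the single pools, between 51.0% (mPGK-A) and 58.1% (mPGK-E) of the isolated integrations were called lower, and between 14.0% (mPGK-D) and 20.2% (mPGK-C) higher. In each pool the lower share thus lay above the share over all integrations, and the higher share below it.

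Reporters far below the pool median were more frequent among isolated integrations. Over 16-fold below the pool median lay 387 isolated integrations (12.6%), where the share over all integrations was 6.48%. By pool this share was 9.88% (mPGK-A), 11.5% (mPGK-B), 13.2% (mPGK-C), 15.7% (mPGK-D), 14.3% (mPGK-E) and 10.9% (mPGK-F), against 4.85% to 5.72% of the others. The lowest isolated share was above the highest share of the others. The difference was 7.43 ± 2.06 percentage points (SD, n = 6 pools; higher in 6 of 6; exact two-sided permutation test, p = 0.031, adjusted p = 0.042). It was 4.49 points with a pseudocount of 5 RNA reads and 4.80 points with isolation defined by 50 kb, higher in 6 of 6 pools in both. Isolated integrations made up 17.6% of the autosomal ones but 34.4% of those over 16-fold below the pool median. The share over 16-fold below was 7.89% among integrations with 1 neighbour within 100 kb and 5.50% among those with 2, and these differences were not tested.

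Silent reporters, with 0 RNA reads in both replicates, numbered 63 among the isolated integrations (2.05%), where the share over all integrations was 1.03%. There were 6 in mPGK-A (1.23%), 9 in mPGK-B (1.69%), 18 in mPGK-C (4.08%), 13 in mPGK-D (2.50%), 8 in mPGK-E (1.48%) and 9 in mPGK-F (1.61%), against 0.321% (mPGK-F) to 1.13% (mPGK-C) of the others. The isolated share was the higher one within each of the 6 pools, by 1.28 ± 0.89 percentage points (SD; exact two-sided permutation test, p = 0.031, adjusted p = 0.042). The gap was 2.95 points in mPGK-C and 0.54 to 1.37 points in the other 5 pools. With the 10% of integrations with the fewest DNA reads in each pool left out, the gap was 0.943 points and mPGK-B turned to -0.264 points (exact permutation p = 0.0625, adjusted p = 0.071), so the call did not hold without the integrations of lowest DNA depth. Among integrations with at least 1000 DNA reads, 25 of 2102 isolated ones (1.19%) were silent, against 36 of 10210 others (0.353%). At any depth, 1.34% of the integrations with 1 neighbour within 100 kb were silent and 0.862% of those with 2, values given without a test.

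The 63 silent isolated integrations were found in all 6 pools and on 18 of 19 chromosomes. Their DNA reads ranged from 149 to 17276 over both replicates with a median of 774, below the 1588 of all isolated integrations. All 63 were called lower by edgeR at an adjusted p of 0.05, which follows largely from choosing them by 0 RNA reads and is no separate support. The barcode CTGTGCATAGTATACG on chromosome 3 had 7711 and 9565 DNA reads and 0 RNA reads in both replicates, which puts it at least 1779-fold below its pool median, taking 3 RNA reads in all as the floor. CCGCTTGGCAAATTCT on chromosome 11 had 7192 and 7158 DNA reads, which gives at least 1642-fold. These bounds cover counting error only, since PCR reads without molecular identifiers are not independent molecules.

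The next 3 in DNA depth were also far below their pools. CCTCCTAAGTTAATCT on chromosome 14 had 4597 and 4578 DNA reads (at least 945-fold below), ATATCAAAATCTATCT on chromosome 7 had 4001 and 3333 (at least 886-fold), and TATACGCAATATTCTG on chromosome 15 had 2169 and 2186 (at least 526-fold). Their nearest neighbours were not all low. The nearest integration to the chromosome 14 site, 390.0 kb away, was at -6.38, whereas the one 119.7 kb from the chromosome 7 site was at 1.04. Nearest neighbours of the 63 silent integrations averaged -1.59, against -1.07 for those of isolated integrations with RNA reads. Over 16-fold below their own pool medians were 7 neighbours of silent integrations (11.1%), a share close to the 10.7% among neighbours of isolated integrations with RNA reads.

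High output was less frequent in isolated integrations than in all the others together. Over 16-fold above the pool median lay 25 isolated integrations (0.812%), where the share over all integrations was 2.47%. By pool the share was 0.536% (mPGK-F) to 1.13% (mPGK-C), against 2.25% (mPGK-F) to 3.57% (mPGK-D) of the others. The isolated share was lower in 6 of 6 pools, by 2.00 ± 0.47 percentage points (SD; exact two-sided permutation test, p = 0.031, adjusted p = 0.042). The 25 integrations came from all 6 pools and 13 chromosomes, 8 of them had their nearest neighbour at 200 kb or more, and their median distance to it was 129 kb. Among the integrations with 1 neighbour within 100 kb, 30 of 3803 (0.789%) were over 16-fold above the pool median, a share close to that of the isolated ones, and the difference was not tested.

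The top isolated reporter, ACTCAGGGATAAGTCA on chromosome 5, had 360 and 302 DNA reads and 7720 and 7971 RNA reads, an expression of 6.27 or 77.1-fold above its pool median (edgeR adjusted p = 2.6e-07). The site was chosen by this ratio, so the p-value, from the same counts, is no separate support. This reporter had no listed integration for 336 kb on the left, where the nearest one was at 0.97, and for 339 kb on the right. TTATTTTCTTCGCATC on chromosome 3, with 15982 and 16524 RNA reads, was at 5.24 (37.7-fold), and its nearest neighbour 115 kb away was at -1.39. The replicates lay close together, at 6.15 and 6.39 for the first and at 5.12 and 5.35 for the second.

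The nearest neighbours of the other 3, like that of the top reporter, were above their pool medians. ATTGCCTTTTACTCTC on chromosome 5 was at 5.21 (37.1-fold) with the nearest neighbour, 245 kb away, at 3.81. AGGGGAATGCACCATT on chromosome 1 was at 5.21 (37.0-fold) with a neighbour at 1.78, and AATATCCCAAGCCGTA on chromosome 14 at 4.86 (29.1-fold) with a neighbour at 2.70. Among isolated integrations with at least 1000 DNA reads and no neighbour within 200 kb, ATTGCCTTTTACTCTC was the highest and the silent CCGCTTGGCAAATTCT the lowest.

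The DNA depth behind these ratios was measured in the same way. The mean log2 of DNA reads was 10.4 to 10.7 per pool for isolated integrations and 10.6 to 10.8 for the others, a difference of -0.088 ± 0.083 (SD, n = 6 pools; lower in 5 of 6; exact two-sided permutation test, p = 0.0625, adjusted p = 0.071). Taken within quartiles of the DNA reads of a pool, the difference in expression was -1.47 log2 units, lower in 6 of 6 pools. With at least 3000 DNA reads, 750 isolated integrations averaged -1.34 and 3789 others 0.035, and 9.73% of the isolated ones were over 16-fold below the pool median, against 4.30% of the others.

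Most isolated integrations were only moderately far from their neighbours. To the left the nearest listed integration was at a median of 237 kb (middle 50% 152 to 414 kb, 3071 integrations), and to the right at 236 kb (152 to 410 kb, 3068 integrations). The nearest on either side was at a median of 164 kb, with 5% under 104 kb and 5% over 485 kb, against a median of 20.1 kb for the other autosomal integrations. The nearest lay to the left for 49.0% of the 3060 isolated integrations with neighbours on both sides, and the farther side was at a median of 354 kb. The ratio of the farther to the nearer distance, taken for each integration, had a median of 1.80. Both sides were empty for 200 kb in 1093 of them (35.7%), and at least 1 side for 1000 kb in 261. The other 19 isolated integrations were the first or last listed on their chromosomes.

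Expression was lower still where the empty stretch was longer. Within the isolated integrations, those with the nearest neighbour at 200 kb or more averaged -1.66 (mPGK-A), -1.82 (mPGK-B), -1.95 (mPGK-C), -1.79 (mPGK-D), -1.89 (mPGK-E) and -1.65 (mPGK-F), against -0.94, -1.04, -1.08, -1.51, -1.34 and -1.06 for those at 100 to 200 kb in the same pools. The difference was -0.63 ± 0.21 (SD, n = 6 pools), a 1.55-fold lower ratio, and was lower in 6 of 6 pools (exact two-sided permutation test, p = 0.031, adjusted p = 0.042). Only mPGK-D had a gap under 0.5, at -0.28. In finer classes the mean was -0.95 for 784 integrations at 100 to 125 kb, -1.04 for 500 at 125 to 150 kb, -1.51 for 692 at 150 to 200 kb, -1.47 for 595 at 200 to 300 kb, -1.98 for 363 at 300 to 500 kb and -2.71 for 132 at 500 to 1000 kb. The means fell with distance except between 150 and 300 kb, where neighbouring classes were alike, and beyond 1000 kb, where 13 integrations averaged -1.50.

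**Figure D3:**
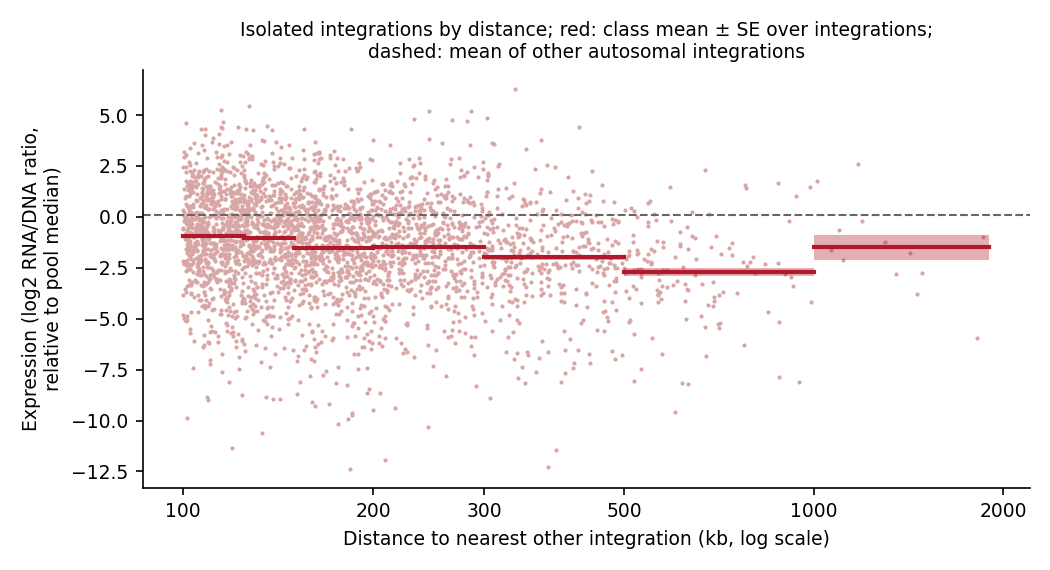
Expression (log2 RNA to DNA ratio relative to the pool median) of each isolated integration (pink points) against the distance to its nearest other integration (kb, log axis), with class means (red lines) ± SE over integrations (bands) and the mean of the other autosomal integrations (dashed). Class means lie below the dashed line at all distances, between -0.95 at 100 to 125 kb and -2.71 at 500 to 1000 kb, and the last class holds 13 integrations.

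The share over 16-fold below the pool median was 10.3% at 100 to 125 kb and 23.5% at 500 to 1000 kb, and the share called lower by edgeR was 46.7% and 76.5% in these classes. The rise was not steady, since the share over 16-fold below was 13.4% at 150 to 200 kb and 11.3% at 200 to 300 kb. Beyond 1000 kb, 7.69% of 13 integrations were over 16-fold below and 61.5% were called lower. Of the 145 isolated integrations at 500 kb or more, 6 were silent (4.14%), 17 were above the median of their pool (11.7%), and 0 were over 16-fold above it, which allows a share of up to 2.07% for counting error alone. The 5 farthest members were not the lowest ones. GTTAATCGAATATAAA on chromosome 7, with empty stretches of 4741 kb and 1855 kb on its sides, had 78 and 73 RNA reads and an expression of -0.99, which did not pass the test (edgeR adjusted p = 0.059).

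The other 4 of the farthest members were called lower. GGAGGCTGTTACGTAC on chromosome 9 (1818 and 1817 kb) had 1 and 9 RNA reads against 637 and 576 DNA reads, an expression of -5.94. TGTCCTGAGTCGATGT on chromosome 17 (1645 and 1484 kb) was at -2.76, GTTCTATCCCAATGGC on chromosome 3 (1461 and 1740.0 kb) at -3.81, and CAGAAGTGGAGTAAGA on chromosome 16 (1649 and 1419.9 kb) at -1.76. Their edgeR adjusted p-values were at most 0.000237.

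At the edge of the rule, the 3 members nearest to 100 kb lay 100008, 100029 and 100029 bp from their neighbours, the last 2 being each other's neighbour in mPGK-B on chromosome 5. Their expression was 2.46, 0.35 and -0.56. The 3 integrations just outside lay 99933, 99897 and 99889 bp from theirs and were at -3.12, 2.01 and 1.22.

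The nearest integration was itself isolated for 1531 of the 3079 (49.7%), a share raised by the rule, which leaves such a neighbour empty on the near side. These 1531 averaged -1.75 with neighbours at -1.65, and the 1548 whose nearest integration was not isolated averaged -1.03 with neighbours at -0.51. The nearest integration came from the same pool for 515 isolated integrations (16.7%). Across the 3079 members, expression correlated weakly with that of the nearest integration (Pearson r = 0.24, and 0.24 for the 2564 pairs from different pools). This runs across sites, and neighbours that are both isolated can enter as a pair in both orders.

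Runs of consecutive isolated integrations were lower the longer they were. The 3079 members formed 1506 runs along the chromosomes. Members standing alone between non-isolated integrations (807) averaged -0.84, those in runs of 2 (666) averaged -1.09, those in runs of 3 to 4 (834) averaged -1.43 and those in the 118 runs of 5 or more (772) averaged -2.17. In runs of 5 or more, 18.4% were over 16-fold below the pool median and 3.76% were silent, against 10.2% and 1.73% of those standing alone. Members of these runs were lower than single ones in 6 of 6 pools, by -0.92 (mPGK-B) to -1.50 (mPGK-E), which is a description since the runs were chosen after these data had been analysed. Median DNA reads were 1610 in runs of 5 or more and 1598 for single members. The median distance to the nearest integration was 177 kb in runs of 5 or more and 152 kb for single members. Whether run length matters apart from this distance was not tested.

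The longest run held 17 members over 8999 kb of chromosome 1, between 143301929 and 152300808, with reporters of all 6 pools. Expression ran from -9.41 to 0.56 with a median of -4.11, 9 members were over 16-fold below their pool medians, 16 were called lower by edgeR and 1 lay above its pool median. Among all isolated integrations 12.6% were over 16-fold below and 53.6% were called lower, and over all integrations 6.48% and 33.7%. The members over 16-fold below came from all pools but mPGK-B, whose members here were at -2.83 and 0.56, and the highest and the lowest were 5626 kb apart.

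A group of 3 runs of 14 members tied for the next length. On chromosome 1, between 108780668 and 117973001, expression ran from -7.38 to 0.66 with a mean of -2.94. On chromosome 15, between 68438377 and 72383594, it ran from -10.62 to 1.24 with a mean of -3.28, and 2 members were silent, 1 of them TATACGCAATATTCTG at the left end. On chromosome 3, between 41407105 and 49840234, it ran from -7.84 to 0.76 with a mean of -2.93 and 1 silent member. Of the 14 members, 12, 11 and 11 were called lower in these runs in the order given, and each run also held 1 or 2 members above the pool median. For scale, 53.6% of all isolated integrations and 33.7% of all integrations were called lower.

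**Figure D4:**
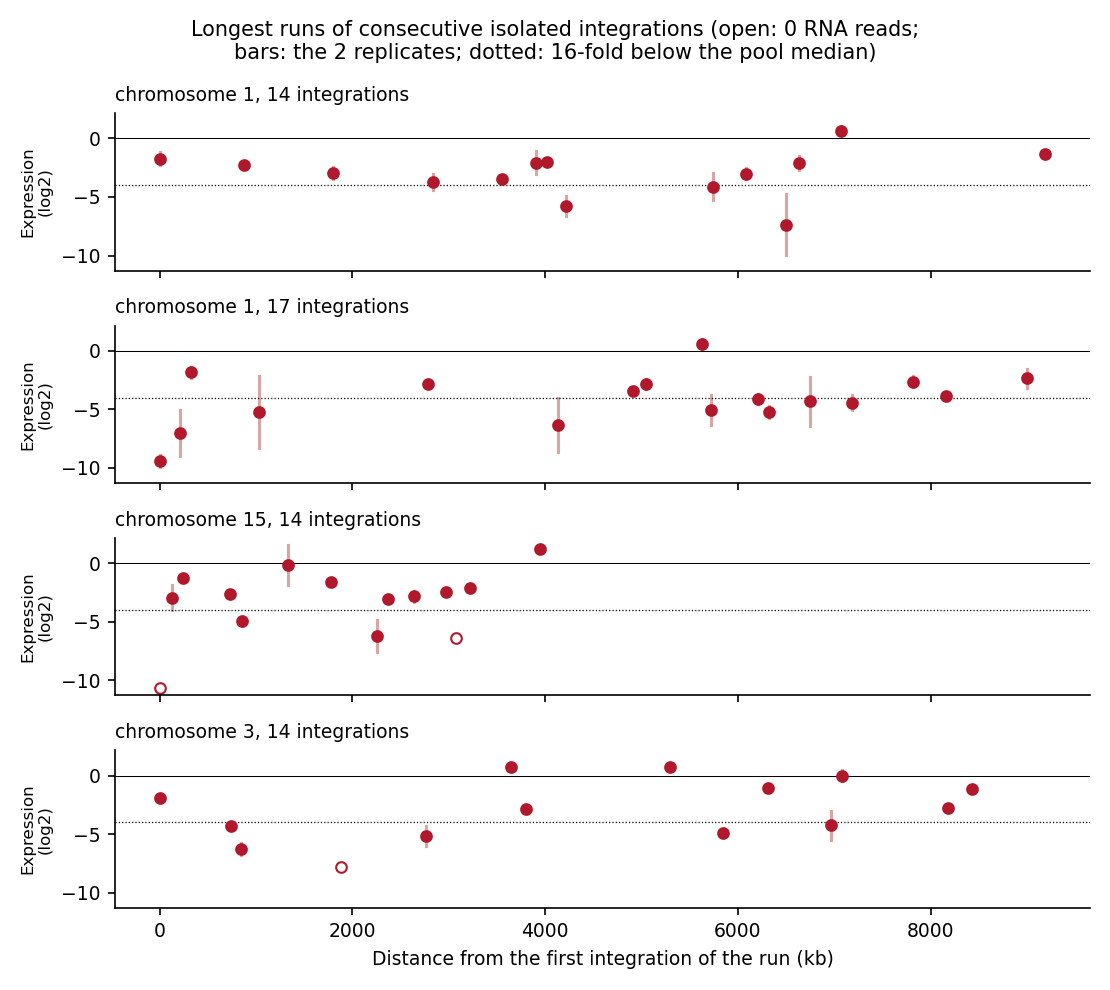
Expression (log2 RNA to DNA ratio relative to the pool median) of every member of the 4 longest runs of consecutive isolated integrations against the distance from the first member (kb), with bars joining the 2 replicates, open circles for 0 RNA reads, a solid line at the pool median and a dotted line at 16-fold below it. Nearly all members lie below the pool median, and long bars mark members with few RNA reads.

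Members within a run could differ greatly over short distances. In the run on chromosome 15, the silent TATACGCAATATTCTG was followed after 133 kb by a member at -2.93 and after 245 kb by 1 at -1.27. In the run on chromosome 3, the members at 6968 kb and 7078 kb from its start were at -4.25 and -0.03. Some of these low values rest on few reads: the member of the 17-member run at -5.24 had 0 RNA reads in replicate 1 and 23 in replicate 2, against 421 and 302 DNA reads.

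All 19 chromosomes held isolated integrations, from 71 on chromosome 19 to 254 on chromosome 1. The share of a chromosome's integrations that were isolated was highest on chromosomes 12 (23.0%), 8 (20.2%) and 1 (20.1%), and lowest on chromosomes 11 (13.2%), 15 (14.4%) and 19 (14.5%). Isolated integrations were lower in mean expression than the others on 19 of 19 chromosomes, and in 113 of 114 pairs of a chromosome and a pool. The difference ran from -1.80 on chromosome 1 (-1.81 ± 0.16 against -0.01 ± 0.07, SE over integrations) to -0.57 on chromosome 19 (-0.61 ± 0.24 against -0.05 ± 0.11), the only chromosome with a pool in the opposite direction. Taken within chromosomes, the difference over the 6 pools was -1.46 log2 units (exact permutation p = 0.031, adjusted p = 0.042).

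**Figure D5:**
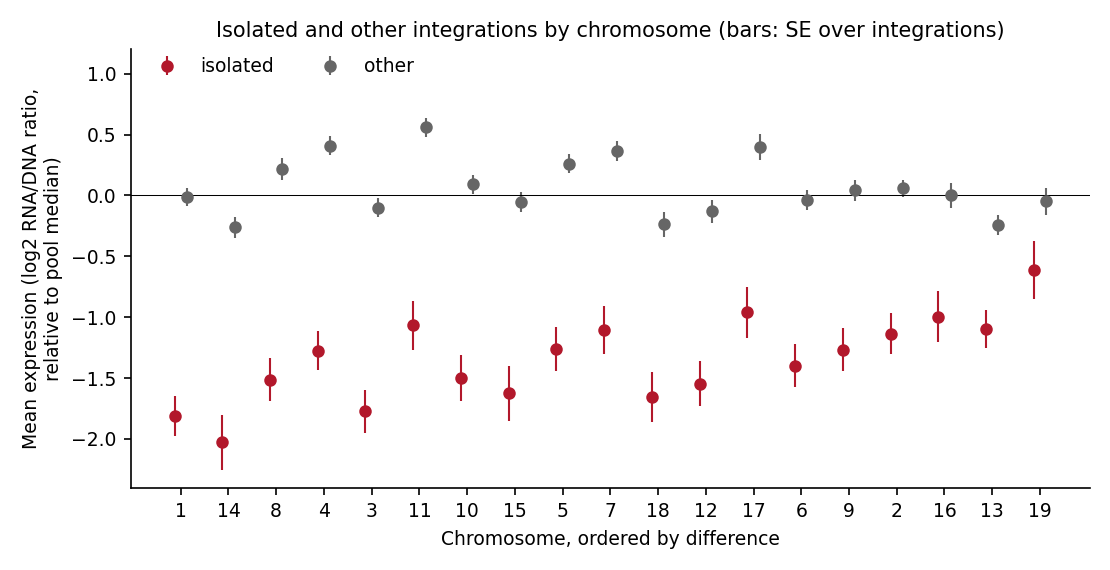
Mean expression (log2 RNA to DNA ratio relative to the pool median) of isolated (red) and other (grey) integrations on each autosome, with bars for the SE over integrations and chromosomes ordered by the difference. The red mean lies below the grey one on all 19 chromosomes, and the gap runs from -1.80 on chromosome 1 to -0.57 on chromosome 19.

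The lowest mean of isolated integrations was on chromosome 14, at -2.03 ± 0.23 (SE over 155 integrations), where 20.0% were over 16-fold below the pool median. That share was higher in isolated integrations than in the others on 19 of 19 chromosomes, from 5.45% against 4.58% on chromosome 17 to 20.0% against 6.31% on chromosome 14. The silent share was higher on 15 of 19. On chromosome 19, 0 of 71 isolated integrations were silent, which allows a share of up to 4.23% for counting error alone. A further 167 integrations on chromosome X met the distance rule but were outside the chromosomes taken here.

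All 6 pools contributed isolated integrations. Isolated integrations numbered 486 in mPGK-A, 531 in mPGK-B, 441 in mPGK-C, 521 in mPGK-D, 540 in mPGK-E and 560 in mPGK-F, which is 16.8% (mPGK-D) to 18.3% (mPGK-F) of the autosomal integrations of each pool. Their median distance to the nearest other integration was 161 to 171 kb. By strand of insertion, 1510 isolated reporters on the plus strand averaged -1.44 and 1569 on the minus strand averaged -1.34, and the plus strand held 49.0% of isolated and 49.2% of other integrations. Silent reporters were 2.38% of isolated integrations on the plus strand and 1.72% on the minus strand, values given without a test.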

How the data were processed

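The table deposited by the authors gives, for each barcode of a pool, its mapped position and raw read counts from DNA and RNA in either replicate. The submitters' processing notes name Bowtie2 2.0 and the build mm9. Per the labels, RNA and DNA barcodes were each amplified in 2 PCRs per replicate, and sites were mapped by inverse PCR after DpnII digestion. The labels do not say how PCRs were combined or barcodes kept. Totals are sums over listed barcodes, not library depth.

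From these counts, expression was computed per replicate as log2 of RNA share over DNA share with a pseudocount of 0.5 RNA reads, averaged and centred on the pool median. Pools were the units: differences within pools were tested by all 64 sign flips, with Benjamini-Hochberg adjustment over 8 tests at 0.05. RNA and DNA counts were compared within pools by the quasi-likelihood test of edgeR 4.0.16 under R 4.3.3 (filterByExpr removed 0 barcodes; TMM scaling shifted to a median ratio of 0). Without the shift, medians lay at -0.27 to -0.23 log2 units. Other values came from Python 3.11.15, numpy 2.4.6, scipy 1.17.1 and pandas 2.3.3. Replicate numbers pair the RNA and DNA of a culture, per the labels, and their deviations correlated at -0.00212 to 0.0576 across barcodes.

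Members, classes and named sites were chosen with earlier results of these data known. Named sites were the 5 with the highest expression at 100 or more DNA reads, the 5 deepest silent ones, the 5 farthest, 3 on each side of 100 kb, the extremes at 200 kb or more with at least 1000 DNA reads, and the longest runs, of which 3 tied. Fits were tested on simulated data. Alternatives were another pseudocount, depth and distance, other count models including DESeq2 1.42.0, and leaving out each replicate or pool. An annotation or genome of mm9 was not used here, so genes and flanking bases at the sites are not given.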

Additional observations from a re-analysis of the deposited data

Results flagged for a closer look

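In mPGK-C the share of silent integrations was 4.08% among isolated integrations and 1.13% among the others, a gap of 2.95 percentage points that stood apart from the other 5 pools, where the gap was 0.54 to 1.37 points. It was the 1 value that stood apart among 16 sets of 6 pools looked at, and such a rule picks out about 1 in 20 sets by chance. Without mPGK-C the mean gap was 0.943 points, in 5 of 5 pools in the same direction.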

How the results depend on the processing

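Across alternatives, isolated integrations stayed below the others in mean expression, from -1.72 to -1.17 log2 units, and below those with 1 or 2 neighbours, by -0.68 where that gap was narrowest. Leaving out 1 replicate gave -1.49 to -1.45 and -0.94 to -0.91 for these differences, 6.17 to 8.04 and -2.31 to -1.90 percentage points for the shares over 16-fold below and above the pool median, 0.066 to 0.14 for the SD, -0.096 to -0.084 for log2 DNA reads and -0.67 to -0.60 for the difference by distance. The gap in the silent share was 2.73 to 3.01 points with 1 replicate, where a barcode needs 0 RNA reads in that replicate only, and 0.943 points (exact permutation p = 0.0625) without the lowest 10% of DNA reads, where the calls that held had an adjusted p of 0.05 (exact permutation test). The gap in the silent share was 0.70 points at 50 kb. Defining isolation by 50 kb put log2 DNA reads at -0.057 (exact permutation p = 0.031) and gave 1443 higher and 2800 lower calls among 6053 members. At 200 kb there were 127 higher and 676 lower calls among 1103 members. The shares moved too: higher calls were 23.8% of members at 50 kb, 17.5% at 100 kb and 11.5% at 200 kb, and lower calls 46.3%, 53.6% and 61.3%. Calls were 484 to 523 higher and 1449 to 1587 lower without 1 count column, and 544 and 1644 with DESeq2. With the replicate block, which keeps RNA and DNA of a culture paired, calls were 532 higher and 1623 lower, against 539 and 1649 without it. Without a pool only values were compared, since 5 pools allow no exact p below 0.0625. The difference in SD, which did not pass the test, turned to -0.101 with a pseudocount of 5 RNA reads, -0.0125 at 200 kb and -0.0648 without integrations under 10 RNA reads. That last alternative was chosen after seeing the data and changed no call among the pool tests run with it. The silent share was not among them, since every integration with 0 RNA reads is left out. The causes were not tested. Low RNA counts limit how low a ratio can be measured, and silent integrations enter means at a value set by the pseudocount.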
